A study of Sus scrofa with 12 samples.

Results

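The complement genes *C1R*, *C1S*, *C2*, *C3*, *C4A*, *CFB*, *CFD*, *SERPING1* and *FCN2* were followed in the loin muscle (*Longissimus dorsi*) of 12 Iberian pigs, 6 labelled Tough and 6 labelled Tender. They are 9 of the 28207 genes annotated on the chromosomes of Sscrofa11.1, chosen by name as components and regulators of complement. The choice was made with earlier results of these data known. The paper had listed C2, C3, C4 and FCN2 in a cluster of proteins whose genes were higher in its Tender group. An assembled transcript was given to a member when at least 50% of its exonic bases lay in the exons of that gene on the same strand, and 8 of the 9 genes had such transcripts in all 12 libraries. *CFB* had no assigned transcript in any of the 12 libraries, and its level was not analysed here. All 12 animals were castrated males of 1 closed purebred line, fattened outdoors on acorns and grass, and each gave 1 library. The groups were selected for extreme breeding values for shear force, the force needed to cut the cooked loin. Shear force was 7.32 to 10.63 kg/cm2 in the Tough animals and 2.18 to 3.43 kg/cm2 in the Tender animals, so the gap comes from the selection. The age of each animal is not given in the labels.

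Complement is a set of blood and tissue proteins that cut and activate one another on a surface. The classical pathway starts with the C1 complex, in which the protease encoded by *C1R* activates that encoded by *C1S*, which cuts C4 and C2. The lectin pathway starts with recognition molecules such as the ficolin encoded by *FCN2*. Both lead to the cutting of C3, on which the alternative pathway, with factor B (*CFB*) and factor D (*CFD*), builds a loop of amplification. The C1 inhibitor encoded by *SERPING1* stops C1r and C1s. Liver is the main source of most of these proteins, while fat is a major source of factor D and many tissues make some of them.

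Members that lie close together, or that had high values in the same library, are shown by the 250 bases before the annotated start of the gene, in Sscrofa11.1, written 5′ to 3′ on the strand of the gene. *C1R* (chromosome 5, 63644097 to 63655149, plus strand) and *C1S* (chromosome 5, 63670309 to 63681466, minus strand) face each other with their 3′ ends 15159 bases apart. *C2* (chromosome 7, 24020590 to 24034042), *CFB* (24034077 to 24040523) and *C4A* (24068019 to 24083060) follow each other on the plus strand of chromosome 7, with 34 bases between *C2* and *CFB* and 27495 between *CFB* and *C4A*. *C3* (72431470 to 72471622, plus strand), *CFD* (77509792 to 77511988, minus strand) and *SERPING1* (13324160 to 13338826, minus strand) are on chromosome 2, and *FCN2* (274106276 to 274111970, plus strand) is on chromosome 1. Capitals mark matches, on either strand, to the interferon gamma activation site TTCNNNGAA, the C/EBP motif TTGCNNAA, the interferon-stimulated response element (GAAA and GAAA with any 2 bases between them) or the NF-kappaB motif (GGG and CC with any 5 bases between them). The windows shown are those of *C3*, *C4A*, *C1R* and *C1S*, in which no annotated exon and no exon of an assembled transcript lies.
C3: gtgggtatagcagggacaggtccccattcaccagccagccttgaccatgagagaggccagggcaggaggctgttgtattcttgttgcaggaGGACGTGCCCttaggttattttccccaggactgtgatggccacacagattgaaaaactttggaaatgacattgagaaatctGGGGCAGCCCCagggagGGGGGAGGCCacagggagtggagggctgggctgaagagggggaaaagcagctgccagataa
C4A: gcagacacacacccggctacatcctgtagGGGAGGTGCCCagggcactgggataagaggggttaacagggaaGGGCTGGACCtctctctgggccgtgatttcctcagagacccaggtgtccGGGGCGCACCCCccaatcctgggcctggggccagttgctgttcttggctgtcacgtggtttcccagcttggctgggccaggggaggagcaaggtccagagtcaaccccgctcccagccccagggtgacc
C1R: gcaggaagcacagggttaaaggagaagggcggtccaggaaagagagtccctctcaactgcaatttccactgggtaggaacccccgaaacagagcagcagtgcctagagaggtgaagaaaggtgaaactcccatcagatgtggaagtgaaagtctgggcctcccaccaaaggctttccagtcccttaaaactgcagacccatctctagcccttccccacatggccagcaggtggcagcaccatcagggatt
C1S: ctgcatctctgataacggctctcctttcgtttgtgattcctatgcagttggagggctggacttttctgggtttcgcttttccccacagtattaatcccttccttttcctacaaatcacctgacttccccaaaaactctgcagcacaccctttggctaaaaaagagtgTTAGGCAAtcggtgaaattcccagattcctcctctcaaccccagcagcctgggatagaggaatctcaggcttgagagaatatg
The *C3* window holds 4 matches to the NF-kappaB motif and that of *C4A* holds 6, some of which overlap each other. A match to this loose motif is in 59.2% of the same windows of 19547 protein-coding genes. The *C1S* window has 1 match to the C/EBP motif, which 8.21% of all windows hold, and that of *C1R* has none of the 4 motifs. None of these 4 windows holds either interferon motif, which are in 6.11% (TTCNNNGAA) and 3.01% (the response element) of all windows. The *SERPING1* window, not shown because an exon of 1 assembled transcript reaches into it, has 1 match to TTCNNNGAA and none to the response element, and that of *C2*, where exons of several do, has neither. The matches are positions of letters and were not tested for binding.

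Each library was deposited as an assembly of 25798 to 31353 transcripts with levels in FPKM (sequenced fragments scaled to the length of the transcript and the size of the library) and no read counts. A gene level is the sum of FPKM times length over its transcripts, divided by the exonic length of the gene, and it was tested with limma on log2(FPKM + 0.5), a scale that understates the change of low genes. The filter of a mean above 0.5 FPKM was passed by 9017 genes, all 8 measured members among them. The coverage that 1 FPKM stood for, a measure of relative depth, was 6.57 to 10.3 over the libraries. Of the muscle markers, *TNNT3* (fast troponin T) had 1308 FPKM or more in every library, whereas *CKM* (muscle creatine kinase) was listed at 0 in some, so an exact 0 does not show that a gene was silent. In such whole muscle RNA, fewer cells of a type and less RNA per cell cannot be told apart.

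The complement genes of loin muscle covered a wide range of levels, from *CFD* and *SERPING1* at group means of 21.0 to 40.2 FPKM to *C2*, *C4A* and *FCN2* near 1 FPKM. No member passed the thresholds between the Tough and Tender groups (limma, fold change of 1.5 with p up to 0.05 and Benjamini-Hochberg adjusted p up to 0.10), under which 0% of the 9017 genes were called. At an unadjusted limma p of at most 0.05, 0 of the 8 members and 2.47% of all genes (223 of 9017) passed. *FCN2* was the member nearest to this limit and was past it in 9 of its 25 alternatives. An exact Wilcoxon test called 0 genes and put 171 at an unadjusted p of at most 0.05. All 8 members were on the Tender side of 0, against 39.7% of all genes above 0 on the Tough side, and their median log2 fold change was -0.41 against -0.040 over all genes. The members were chosen with earlier results of these data known, so their shared side is a description and was not tested. Without the library of Tender 2, 5 of the 8 stayed on the Tender side (39.4% of all genes above 0), with a median of -0.011 over the members and -0.045 over all genes. In that fit 0 of the 8 reached a limma p of 0.05 before adjustment, as 2.57% of all genes did. For no member were the groups free of overlap, as they were for 0.0998% of all genes.

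**Figure D1:**
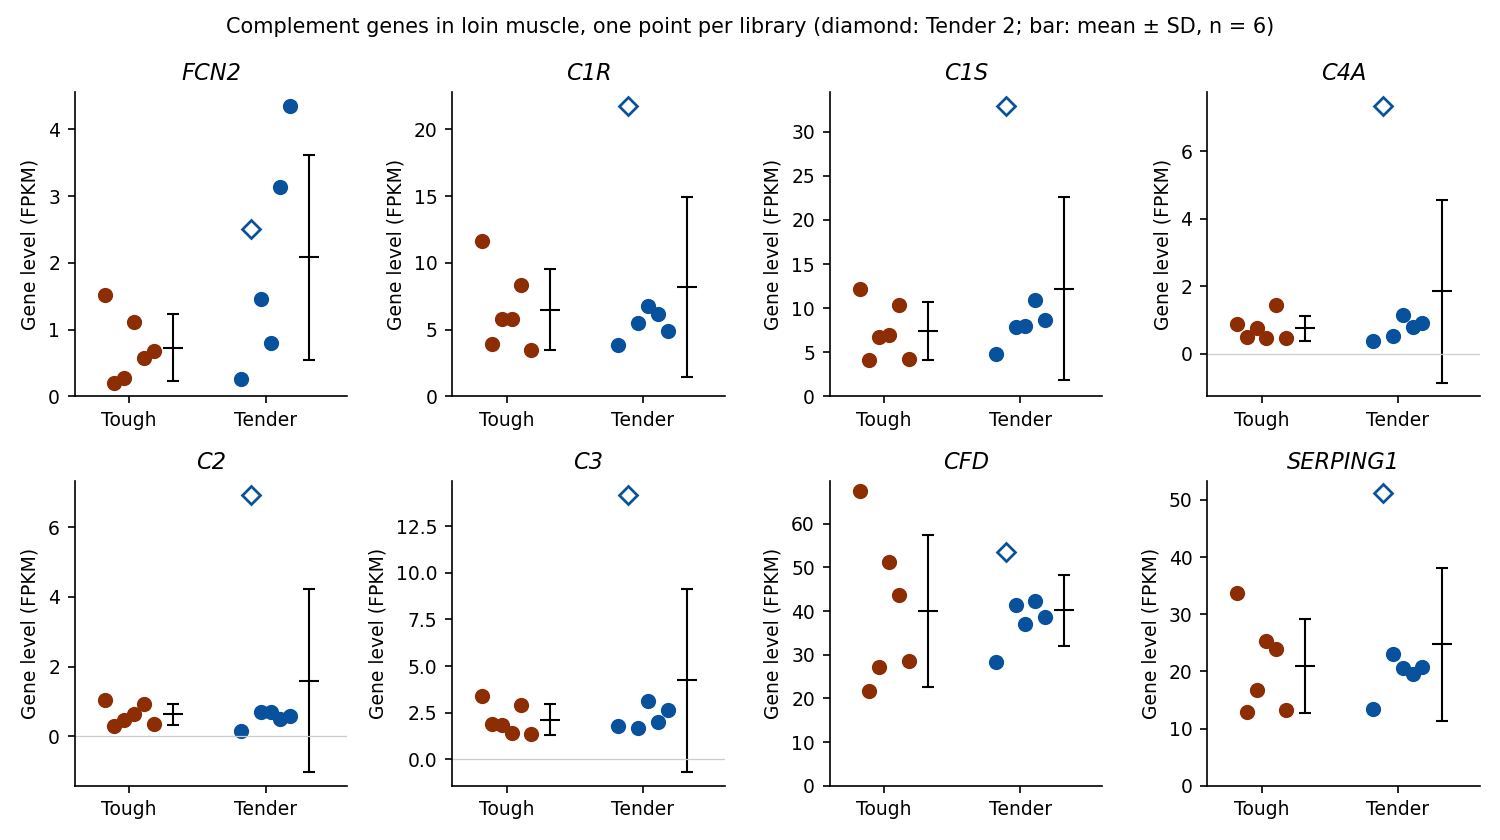
Level of each measured complement gene in FPKM in the 6 Tough and the 6 Tender libraries, one point per library, with the group mean and SD beside the points and the library of Tender 2 as an open diamond. Tender 2 is the highest library for 6 of the 8 genes, at 14.2 FPKM for C3 and 32.9 FPKM for C1S, and for CFD and FCN2 it lies within the range of the other libraries.

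*FCN2*, which encodes a ficolin that binds sugars on microbes, had the largest group difference among the members. Its level was 0.207 to 1.51 FPKM in Tough loins (median 0.633) and 0.267 to 4.35 FPKM in Tender loins (median 1.98). The Tender animals 2, 5 and 6, at 2.50, 3.14 and 4.35 FPKM, lay above every Tough animal, and the other Tender animals lay within the Tough range. On the log2 scale the fold change was -0.92 ± 0.43 (SE), with an unadjusted limma p of 0.054 and an adjusted p of 1, and the exact permutation test over all splits into 6 and 6 gave a two-sided p of 0.0823. Over the alternatives its unadjusted limma p was 0.0069 (without Tender 1) to 0.125 (without Tender 6). It was -0.83 without Tender 2, so *FCN2* is the member whose difference moved least in proportion with that library. The lowest values rest on few fragments, an estimated 11 to 11.9 in Tough 2, Tough 3 and Tender 1, where the assembled transcript covered 44.9% to 58.2% of the exonic bases. The 9-exon annotated structure was assembled in full in 9 of the 12 libraries.

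The proteases of the C1 complex were measured at several FPKM in every animal. *C1R* had 3.44 to 11.7 FPKM in Tough loins (median 5.82) and 3.87 to 21.8 FPKM in Tender loins (median 5.87). *C1S* had 4.15 to 12.2 FPKM in Tough loins (median 6.86) and 4.76 to 32.9 FPKM in Tender loins (median 8.30). Both genes were highest in Tender 2 and second highest in Tough 1, and the groups overlapped over most of their range. For *C1R* the log2 fold change was -0.17 ± 0.38 (SE, exact permutation p 0.712) and for *C1S* it was -0.50 ± 0.40 (exact permutation p 0.312). Without Tender 2 they were 0.15 and -0.16.

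The level of *C1S* over that of *C1R*, a comparison within each library chosen after the values were seen, was 1.05 to 1.24 in Tough loins and 1.18 to 1.76 in Tender loins. The 4 highest ratios belonged to Tender animals (1.43 to 1.76) and the 3 lowest to Tough animals, while Tender 1 and Tender 4 lay within the Tough range. The geometric mean was 1.15 in Tough loins and 1.46 in Tender loins, a log2 difference of -0.35 with a two-sided exact permutation p of 0.0173. Adjusted over the 3 ratios that were compared, the p was 0.0519, which misses 0.05. The difference was -0.34 (exact p 0.0195) without Tender 2, and -0.37 (exact p 0.0195) when every transcript counted for the bases it shares with the gene. With plain sums of transcript FPKM it was -0.33 and with the highest transcript -0.56, neither past the threshold (exact p 0.374 and 0.108), and it was -0.61 (exact p 0.00866) when transcripts had to lie to 90% in the gene. In Tough 1, 2 of the *C1S* transcripts run on beyond the annotated gene. The 90% rule drops them and a *C1S* transcript of Tough 5, but none of the Tender group. The lowest Tough ratio is then 0.414, so the larger difference under that rule comes with lost *C1S* signal in Tough loins. The ratio of *SERPING1* to *C1S* was 2.32 to 3.62 in Tough loins and 1.56 to 2.91 in Tender loins (exact permutation p 0.0996, adjusted p 0.149 over the same 3), and that of *C3* to *C4A* was 2.04 to 3.90 and 1.93 to 4.90 in the same order of groups (exact permutation p 0.920).

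**Figure D2:**
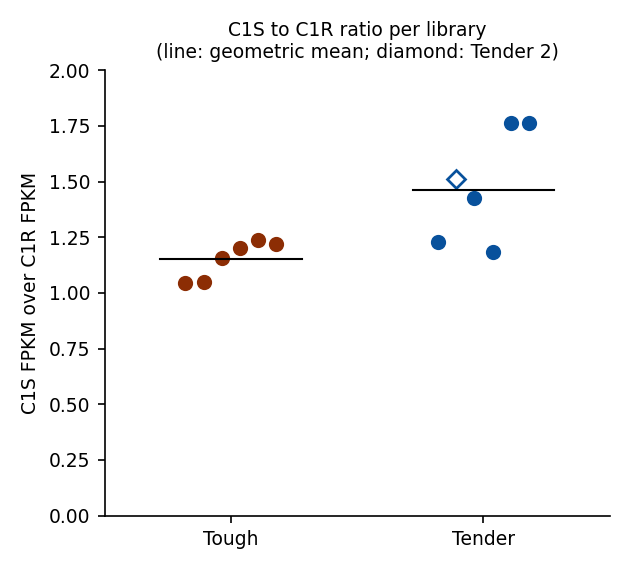
Ratio of C1S to C1R in FPKM in each of the 6 Tough and 6 Tender libraries, with the geometric mean of each group as a line and Tender 2 as an open diamond. The Tough ratios lie between 1.05 and 1.24 and the Tender ratios between 1.18 and 1.76, with Tender 2 at 1.51.

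The substrates of C1s were low in most animals. *C4A* had 0.460 to 1.43 FPKM in Tough loins (median 0.613) and 0.364 to 7.35 FPKM in Tender loins (median 0.854). *C2* had 0.308 to 1.06 FPKM in Tough loins (median 0.566) and 0.161 to 6.92 FPKM in Tender loins (median 0.648). For both genes the Tender maximum was the library of Tender 2 and the other 5 Tender values, at most 1.14 FPKM for *C4A* and 0.708 FPKM for *C2*, lay below the Tough maximum. The log2 fold change was -0.46 ± 0.45 (SE, exact permutation p 0.474) for *C4A* and -0.36 ± 0.48 (exact permutation p 0.703) for *C2*, and it was -0.016 and 0.12 without Tender 2. These levels rest on 85.1 to 2174 estimated fragments per library for *C4A* and 16.7 to 857 for *C2*. Their assemblies were fragmented, with 21 different intron chains of *C4A*, of which 19 were seen in 1 library each, and 14 of *C2*, of which 12 were.

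*C3*, on which all pathways converge, had 1.35 to 3.42 FPKM in Tough loins (median 1.85) and 1.66 to 14.2 FPKM in Tender loins (median 2.32). Tender 2 had 4.15 times the level of the next library, Tough 1, and the other Tender animals, at 1.66 to 3.13 FPKM, lay within the Tough range. Its log2 fold change was -0.50 ± 0.42 (SE, exact permutation p 0.342) and fell to a size of 0.092, still on the Tender side, without Tender 2. The estimated fragments per library were 373 to 1728. The error read from these estimates was 2.41% to 5.17% of the level, far less than the spread between animals.

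*CFD* and *SERPING1* were the most abundant members. *CFD*, which encodes the protease that cuts factor B and is also called adipsin, had 21.7 to 67.4 FPKM in Tough loins (median 36.1) and 28.4 to 53.5 FPKM in Tender loins (median 40.0). Its highest animal was Tough 1 and Tender 2 came after it, and the group means were 40.0 ± 17.4 FPKM in Tough loins and 40.2 ± 8.18 FPKM in Tender loins (SD, n = 6 each). Between the groups its log2 fold change was -0.093 ± 0.26 (SE, exact permutation p 0.734). The list of adipocyte genes summed to 87.9 to 131 FPKM in Tough loins and 88.5 to 165 FPKM in Tender loins (exact permutation p 0.0476, adjusted p 0.524 over the sums of 11 lists). *LPL* and *LIPE*, lipases of fat and muscle with the largest differences of the list, averaged 16.0 and 19.4 FPKM in Tough loins against 33.4 and 34.3 FPKM in Tender loins. The other tested genes outside the defining ones differed less. *PLIN4* averaged 41.8 FPKM in Tough and 42.0 FPKM in Tender loins, *FABP4* 16.7 and 19.3 FPKM, and *GPAM* 1.47 and 2.04 FPKM in that order. Of the 4 defining genes *PLIN1* averaged 5.20 FPKM in Tough loins and 4.62 FPKM in Tender loins, *CIDEC* 1.56 and 1.62 FPKM in that order, *LEP* did not exceed 0.271 FPKM and *ADIPOQ* was listed at 0 in all 12 libraries. *SERPING1* had 12.9 to 33.8 FPKM in Tough loins (median 20.4) and 13.3 to 51.3 FPKM in Tender loins (median 20.6), with Tender 2 highest and Tough 1 next. Its log2 fold change was -0.19 ± 0.32 (SE, exact permutation p 0.597). A second *SERPING1* transcript of 7 exons, beside the 8-exon form, was assembled in 6 of the 12 libraries.

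**Figure D3:**
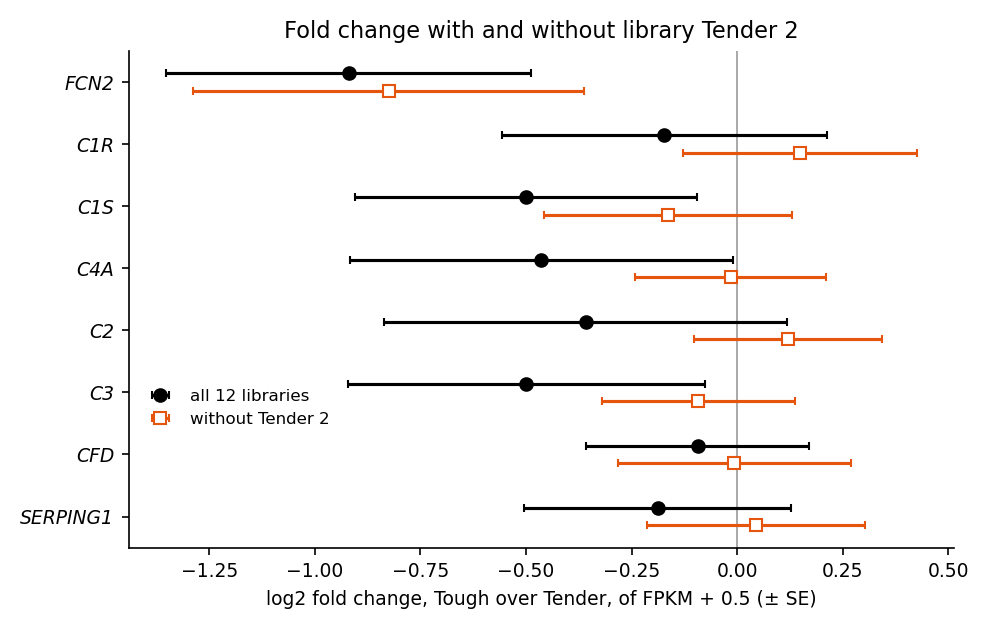
log2 fold change of each measured complement gene, Tough over Tender, with its SE, from the fit to all 12 libraries (filled circles) and to the 11 libraries without Tender 2 (open squares). With all libraries every gene lies below 0, from -0.92 for FCN2 to -0.093 for CFD, and without Tender 2 C1R, C2 and SERPING1 lie above 0, at 0.15, 0.12 and 0.045.

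The library of Tender 2, the animal with the lowest shear force, stood apart for most of the members. It was the highest of the 12 libraries for *C1R*, *C1S*, *C2*, *C3*, *C4A* and *SERPING1*, 6 of the 8, against 13.8% of all genes. Its level over the next highest library was 6.55 for *C2*, 5.14 for *C4A*, 4.15 for *C3*, 2.70 for *C1S*, 1.87 for *C1R* and 1.52 for *SERPING1*, whereas 1.28% of all genes reached 1.5 in that library. For *CFD* and *FCN2* the value of Tender 2 was 0.793 and 0.575 of the highest other library. The excess was largest for the low genes *C2* and *C4A* and smallest for the abundant *SERPING1*. By the Dixon criterion it stood apart from the 5 other Tender libraries for the same 6 members, against 2.16% of all genes. The criterion was applied to FPKM and not to log2 values, on which a high value stands out less. In Tender 2 the main *C3* transcript spanned 40 exons at 10.6 FPKM (Cufflinks interval 9.97 to 11.2), and a second one over 12 exons at the 3′ end had 14.1 FPKM.

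Genes of the response to interferon gamma, which induces antigen processing, were high in the same library. The list summed to 402 FPKM in Tender 2 and to at most 45.5 FPKM in the other 11 libraries. Of its 10 tested genes 9 were highest in Tender 2, against 13.8% of all genes. *CXCL10*, counted among the 9, had 10.2 FPKM in Tender 2 and passed the filter only with that library. The exception was *CIITA*, at 0.608 FPKM in Tender 2 and 1.65 to 2.29 FPKM in Tough loins. *PSMB9* (an immunoproteasome subunit) had 33.4 FPKM and *TAP1* (a peptide transporter) 47.2 FPKM in Tender 2, against maxima of 2.46 and 5.82 FPKM in Tough loins. The macrophage list summed to 31.9 FPKM in Tender 2 and to at most 23.4 FPKM elsewhere, with 5 of its 8 tested genes highest there. Of its defining genes *CD14* had 4.59 FPKM in Tender 2 and at most 1.58 FPKM in the other Tender loins, *CD163* had 1.97 FPKM and at most 1.67 FPKM, *CSF1R* had 5.87 FPKM in Tender 2 and was highest in Tough 1 at 6.14 FPKM, and *CD68* was listed at 0 in Tender 2. The fibroblast list, at 86.8 FPKM in Tender 2 within 85.0 to 258 FPKM over the other libraries, and the endothelial list, at 36.6 FPKM within 19.9 to 49.1 FPKM, were not high there. The lymphocyte list summed to 4.29 FPKM in Tender 2 within 1.93 to 8.57 FPKM over the others. The liver genes *ALB*, *TTR* and *FGA* were listed at 0 in all 12 libraries, and *APOA1*, the other defining liver gene, had 4.13 FPKM in Tender 2, within the 3.20 to 11.6 FPKM of the Tough group. The list of acute phase and NF-kappaB response genes summed to 284 FPKM in Tender 2 and to 59.8 to 243 FPKM elsewhere, with 7 of its 10 tested genes highest in Tender 2. The part of macrophages or of interferon in the levels of the complement genes was not tested.

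**Figure D4:**
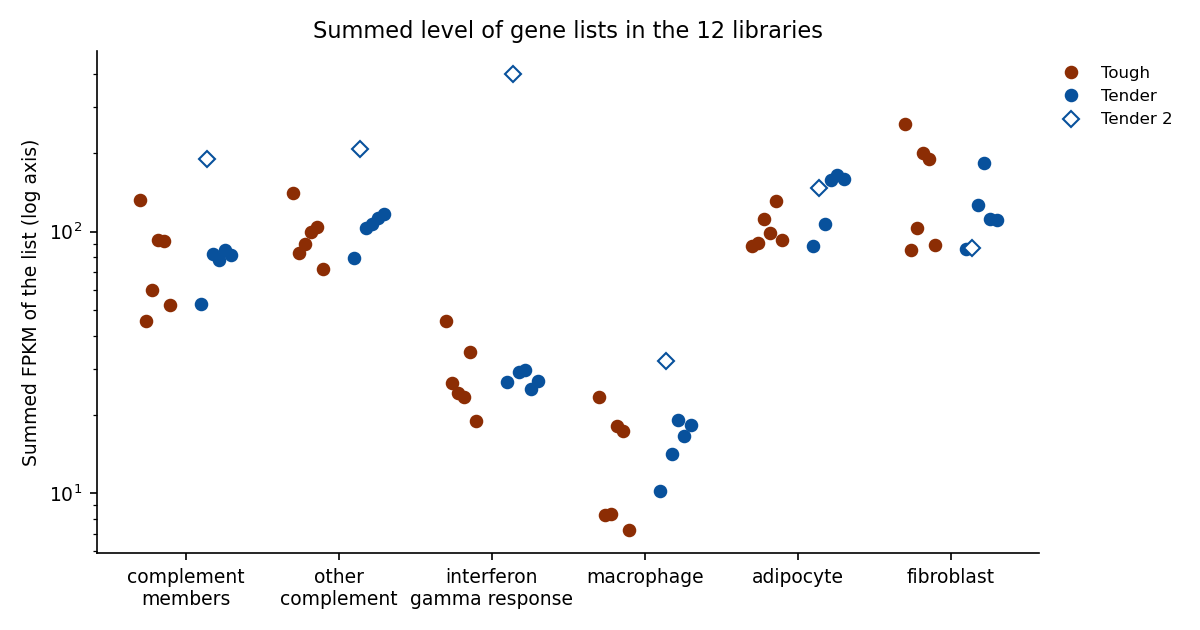
Summed FPKM of 6 gene lists (log axis) in each of the 12 libraries, Tough left and Tender right within each list, with Tender 2 as an open diamond. In Tender 2 the interferon gamma response list reaches 402 FPKM against at most 45.5 FPKM elsewhere and the complement members reach 190 FPKM against at most 132 FPKM, while the fibroblast list is at 86.8 FPKM.

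Of a list of 42 other complement genes, 39 are annotated, 27 had a transcript in at least 1 library and 13 were tested. None of the 13 passed at an unadjusted limma p of at most 0.05, 10 were on the Tender side and 3 on the Tough side, and the median log2 fold change was -0.18. Without Tender 2 the median was -0.089, with 9 on the Tender side and 4 on the Tough side. The recognition subunits of C1 followed the proteases in Tender 2. *C1QA* had 2.26 to 9.23 FPKM in Tough loins and 0.791 to 23.7 FPKM in Tender loins, *C1QB* 3.43 to 15.9 FPKM and 5.32 to 31.2 FPKM, and *C1QC* 3.29 to 12.6 FPKM and 3.86 to 17.5 FPKM in the same order, each with its maximum in Tender 2. *C4BPA*, a subunit of the C4b-binding protein that restrains C4, had 38.2 FPKM in Tender 2 and at most 6.32 FPKM in Tough loins. In the other Tender loins it had at most 5.39 FPKM, and it was listed at 0 in 3 of the 12 libraries. Its place among the most abundant other complement genes rests on Tender 2. Of the regulators on host cells, *CD59*, which blocks the membrane attack complex, had 14.3 to 18.2 FPKM in Tough loins and 13.8 to 19.1 FPKM in Tender loins, and *CD46*, a cofactor for the cutting of C3b and C4b, had 2.05 to 5.39 and 3.25 to 5.41 FPKM in that order. *CLU* (clusterin) had 4.89 to 17.0 FPKM in Tough loins and 8.38 to 12.5 FPKM in Tender loins. *CALR* had 20.2 to 32.5 FPKM and *C1QBP* 10.4 to 21.6 FPKM in Tough loins, against 21.1 to 35.5 and 14.9 to 20.6 FPKM in Tender loins. Of the terminal pathway, *C5*, *C6*, *C8A* and *C8B* were listed at 0 in all 12 libraries and *C7* and *C9* did not exceed 0.302 and 0.144 FPKM.

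Levels of the members were positively correlated over the animals. All 28 pairs of the 8 genes had a positive Pearson correlation of log2(FPKM + 0.5) over the 12 libraries, with a median r of 0.834, and 21 had an adjusted permutation p of at most 0.05 over the 28 pairs. Over the 11 libraries without Tender 2 all 28 stayed positive, with a median r of 0.706, and 16 had such an adjusted p. The closest pair over 12 libraries was *C3* with *C4A* (r = 0.968, permutation p 0.00011, rho = 0.881, permutation p 0.00039, and r = 0.878 without the 2 animals farthest from the median of *C3*). Over 11 libraries it was *CFD* with *SERPING1* (r = 0.951, permutation p 5e-05, rho = 0.909, permutation p 0.00028, and r = 0.907 without the 2 farthest animals). *C1R* and *C1S* had r = 0.951 over 12 (permutation p 3e-05, rho = 0.853, permutation p 0.00066, and r = 0.867 without the 2 farthest) and r = 0.878 over 11. The lowest r over 12 was 0.392, that of *C3* with *FCN2*. Over all pairs of the tested genes the median r was 0.134 with 62.0% of pairs positive over 12 libraries, and 0.153 with 63.1% over 11. The share of all gene pairs that would pass the permutation test was not computed. The counts of 21 and 16 member pairs therefore have no background, and how far they are particular to the members was not tested. All pairs share the scaling and depth of the libraries, and the levels were not rescaled.

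Over the 12 libraries the genes most like *C2* in profile, among 7333 named genes averaging 1 FPKM or more, were *PSMB9* (r = 0.976), *TAP1* (0.973) and *IRF1* (0.968). Those most like *C3* were *TAP2* (0.969), *C4A* (0.968) and *PSMB9* (0.954), and those most like *C4A* were *C3*, *C2* (0.954) and *PSMB9* (0.948). Those most like *FCN2* were *ASB18* (0.896), *NOTO* (0.888) and *HPS6* (0.871). Those most like *C1R* were *C1S* (0.951), *SERPING1* (0.943) and *STAT2* (0.938), and those most like *SERPING1* were *GLIPR2* (0.979), *GMFG* (0.957) and *COTL1* (0.955). Without Tender 2 *PSMB9*, *TAP1*, *TAP2* and *IRF1* were not among the 3 nearest of *C2*, *C3* or *C4A*, which were *MXRA8* (0.981), *GLB1* (0.970) and *CHST14* (0.935) for *C2*, *NID2* (0.947), *PACSIN2* (0.941) and *STAT2* (0.929) for *C3*, and *MXD4* (0.909), *MGST1* (0.892) and *OCRL* (0.889) for *C4A*. *C1R* and *SERPING1* also kept none of their 3 nearest genes without Tender 2. Those of *C1R* were then *HDAC3* (0.968), *CHST14* (0.967) and *MMP14* (0.960). Those of *SERPING1* were *C13H21orf2* (0.977), *TGFB1* (0.976) and *IDUA* (0.970). *CFD* kept *FOLR1* and *CST3* in both sets, and *FCN2* kept *ASB18* and *NOTO*. These correlations are descriptions with no test.

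Shear force was compared with each member within each group, in 16 relations, because the groups were selected on it. In Tough loins 7 of the 8 correlations were positive and in Tender loins none was, and none had an adjusted p below 0.133 (exact permutation over 720 pairings, n = 6). The share of all genes with each sign was not computed. The members rose and fell together and Tender 2 was highest for most of them, so the signs are not separate observations. The Tough signs rest on few animals. Without the 2 animals farthest from the median shear force, 3 of the 8 were positive and 5 negative. All 8 of the Tender group stayed negative without its 2 farthest animals, but these signs rest on few animals too. They come from Tender 1, Tender 4, Tender 5 and Tender 6, at 2.94 to 3.13 kg/cm2. Tender 1 had the highest shear force of these and the lowest level of them for all 8 members. In Tough loins *C3* had r = 0.285 (exact permutation p 0.572) and *C4A* had r = -0.087 (exact permutation p 0.906), against -0.914 and -0.864 without the 2 farthest animals. *C3* in Tender loins had r = -0.951 (exact permutation p 0.00833, adjusted p 0.133) and rho = -0.943 (exact permutation p 0.0167, adjusted p 0.267), and r = -0.616 without the 2 animals farthest from the median shear force, of which Tender 2 is one. *C4A* in Tender loins had r = -0.943 (exact permutation p 0.0222, adjusted p 0.178), rho = -0.886 (exact permutation p 0.0333) and r = -0.874 without the 2 farthest.

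**Figure D5:**
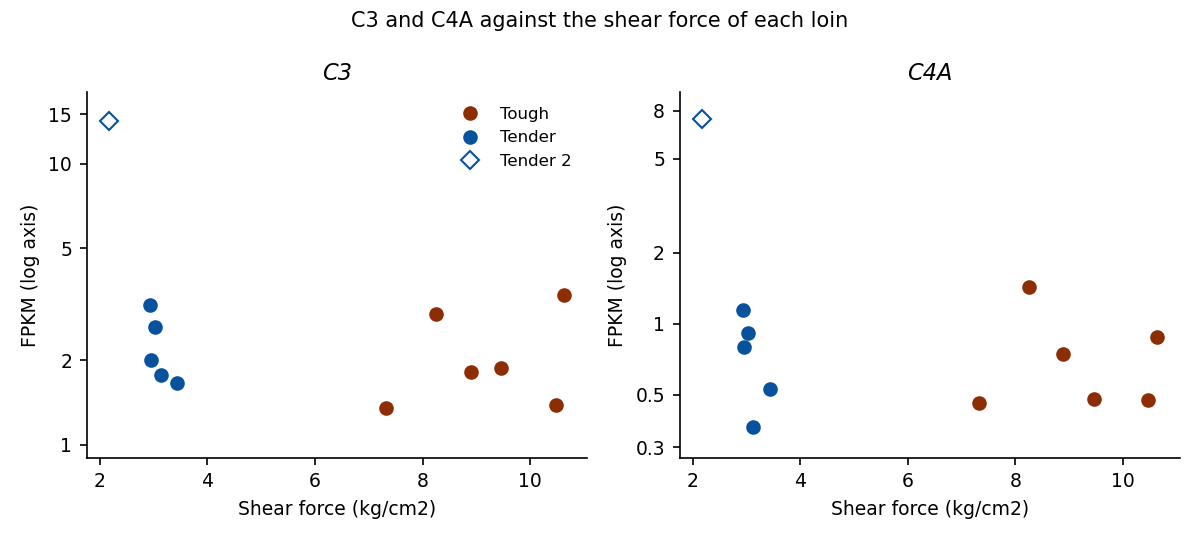
Level of C3 (left) and C4A (right) in FPKM on a log axis against the shear force of the same loin in kg/cm2, one point per animal, with Tender 2 as an open diamond. Tender 2 has the lowest shear force, 2.18 kg/cm2, and the highest level of both genes, 14.2 and 7.35 FPKM, while the 5 other Tender animals and the 6 Tough animals overlap in level.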

How the data were processed

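RNA of the *Longissimus dorsi* of 12 pigs was sequenced in pairs, with 4 samples per lane, and the lane of each library is not given in the sources used here. The authors checked reads with FastQC and trimmed them by Trim Galore before TopHat2 2.1.0 placed them on Sscrofa11.1, and ran Cufflinks 2.2.1 separately for every library. The deposited values are the FPKM of these transcripts, with the bounds of their interval, and the other attributes deposited beside them; read counts were not used here. The deposited score column was not used.

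Transcripts were matched with bedtools 2.31.1 to NCBI Annotation Release 106 of Sscrofa11.1, and 63.2% to 73.8% of those of a library were assigned to a gene. Fragments were estimated from the width of the Cufflinks interval and are no counts. Intervals of this kind do not cover the spread between animals, and for some transcripts they are wider than counting error. In Tender 2 they gave 2809 fragments for *C1R* at 23.6 FPKM over 2268 bases. For *C1S* they gave 1612 at 35.0 FPKM over 2800 bases. Genes averaging more than 0.5 FPKM entered limma 3.58.1 (trend, R 4.3.3) as log2(FPKM + 0.5), without rescaling, with group as the only term and p-values adjusted by Benjamini-Hochberg. Single values had exact two-sided permutation tests over all splits into 6 and 6, correlations within a group 720 pairings, and those among members 100000 resamples. The test was tried on simulated data. The genes named are the members, the 8 most abundant other complement genes, the defining markers and the 3 genes most like each member; others named were chosen after their values were seen. Members, lists and this rule were chosen with earlier results of these data known. The alternatives were the pseudocount, the filter, the scaling, the way of making gene FPKM, the model, a block for the animal number and the omission of each library. Other steps ran in Python 3.11.15 (scipy 1.17.1, pandas 2.3.3, numpy 2.4.6, matplotlib 3.10.9).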

Additional observations from a re-analysis of the deposited data

Results flagged for a closer look

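In the Tender group, the library of Tender 2 was separated from the other 5 for 6 members by a gap in FPKM. Set against the range of the group in FPKM, not in log2 values, this gap exceeds Dixon's criterion for 6 samples. The values in Tender 2 were 21.8 FPKM for *C1R*, 32.9 FPKM for *C1S*, 6.92 FPKM for *C2*, 14.2 FPKM for *C3*, 7.35 FPKM for *C4A* and 51.3 FPKM for *SERPING1*. For normally distributed values chance alone sets 1 sample apart in about 1 of 20 groups, and whether FPKM are so distributed was not tested. Tender 2 was set apart in this direction for 2.16% of all genes tested. This share counts 1 named library at the high end. The rate of 1 in 20 is for any of the 6 samples at either end, so the 2 cannot be compared. No member had such a library in the Tough group.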

How the results depend on the processing

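No gene passed the thresholds in any of the 26 alternatives run, though the exact Wilcoxon test among them could hardly call any at this group size. The log2 fold change of *C1R*, *C2* and *SERPING1* turned to 0.15, 0.12 and 0.045 without Tender 2 (ranges with 1 library left out -0.35 to 0.15, -0.58 to 0.12 and -0.34 to 0.045), and that of *CFD* to 0.058 without Tough 2 (range -0.26 to 0.058) and to 1.03 when transcripts had to lie to 90% in the gene, a rule that its transcript did not meet in 5 libraries. *C1S*, *C3*, *C4A* and *FCN2* stayed on the Tender side in every alternative, and the unadjusted p of *FCN2* was at most 0.05 in 9 of 25. The number of members on the Tough side, 0 of 8, was 1 under the 90% rule and 0 to 3 with 1 library left out. The genes at an unadjusted limma p of at most 0.05, 223, became 347 with no filter, 377 with plain sums, 338 with the highest transcript and 635 with array weights, and 151 to 399 with 1 library left out (377 without Tough 1, 382 without Tender 1 and 399 without Tender 4). Of the 223, 64 were higher in Tough, against 134 of 277 with median-of-ratios scaling and 143 of 286 with quantile normalization. The *C1S* to *C1R* difference, with alternatives chosen after seeing the data, was -0.33 with plain sums and -0.56 with the highest transcript, with exact p of 0.374 and 0.108, -0.61 with the 90% rule (exact p 0.00866), and -0.41 to -0.29 with 1 library left out. The 90% rule drops *C1S* transcripts of Tough 1 and Tough 5 and none of the Tender group. Animals with the same number did not deviate together (correlations -0.22 to 0.023), and with the animal number as a block 171 genes had such a p and 0 were called. The low members *FCN2* and *C2* are limited by 11 and 16.7 estimated fragments in their lowest library.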
